A study of Mus musculus with 6 samples.

Results

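The solute carriers described here are 34 genes of brain endothelium and the vessel wall, chosen by name from a fixed list and matched to the gene symbols of the count tables, where all 34 were found. The tables held 32287 genes, of which another 356 carry a solute carrier name. No measured value was used to choose the members, but the list was made with earlier results of these data known. It includes 1 gene that carries the family name without being a transporter, *Slc9a3r2*, a scaffold protein, and 1 carrier of the inner mitochondrial membrane, *Slc25a5*. Single cells were sequenced from 3 wild-type (WT) mice of the strain C57BL/6J and 3 mice with the genotype AppArcSwe (ArcSwe, named TgAppArcSwe by the study), a transgenic line in which amyloid-β is deposited both as plaques and in vessel walls. All 6 mice were male, untreated, and 12 months old, and the promoter that drives the transgene is not given in the sources used here. From 1 hemisphere of each cerebrum, vessel fragments were captured on beads coated with an antibody against CD31, an endothelial surface protein, and digested to single cells, so each mouse is 1 library and the mix of cells is that of the capture.

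Endothelial cells of the brain are sealed by tight junctions, and nutrients that cannot cross lipid membranes reach the brain through carriers on their blood side and brain side. Glucose enters by facilitated diffusion, large neutral amino acids by exchange, cationic amino acids and lactate by carriers of their own, and thyroid hormone and organic anions by the organic anion transporting polypeptides. Other carriers return glutamine and glutamate from the brain to the blood. The endothelium changes along the vessel from arteries over capillaries to veins, and exchange takes place mainly in capillaries. Fenestrated endothelial cells, found in the choroid plexus and the circumventricular organs, form no such barrier. Pericytes and smooth muscle cells wrap the endothelium, and microglia are the resident macrophages of the brain.

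Cells were sorted into classes by clustering without any solute carrier gene, and the classes were named from marker lists, so the members did not help to define them. Each name rests on these markers alone and is short for arterial-like, pericyte-like, and so on. A level is a gene's UMIs (molecules, each counted once) over the UMIs of all genes analysed in that class and mouse, on the counts-per-million scale (CPM), and levels are given as mean ± SD over the 6 mice unless stated otherwise. Since UMIs are counted at the 3′ end and depend on the transcript, levels are compared between classes for 1 gene and not between genes. The libraries held 26436229 to 59161203 UMIs, and the 44112 cells kept had a median of 2922 to 5542 UMIs in each. Of these cells, 471 carried a barcode that another library also held. Endothelial cells of the barrier numbered 1588 to 6144 per mouse, once a filter on UMIs of the microglial genes *Cx3cr1* and *Aif1* had taken out 1846 of 13033 (WT) and 3417 of 15926 (ArcSwe). The summed level of 9 microglial markers left in them was 169 to 583 CPM in WT and 262 to 745 in ArcSwe mice, with those 2 genes at 0. The microglial libraries stood apart from each other, since WT replicate 3 gave 1332 of the 1448 cells of 1 microglial cluster and ArcSwe replicate 3 gave 1812 of the 3407 cells of another, both with a median ribosomal share under 3%.

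The members were carriers of barrier endothelium for the most part. Together they made up 11281 ± 575 CPM in arterial cells, 15846 ± 563 in capillary cells, and 13187 ± 606 in venous cells, against 4866 ± 524 in fenestrated cells, 2626 ± 417 in pericytes, 1434 ± 60.9 in smooth muscle cells, and 3833 ± 994 in microglia. In barrier endothelium *Slc6a13* and *Slc13a3* had fewer than 10 summed UMIs in every mouse, and the other 32 had 10 or more in at least 1. The heat map of levels by class shows other patterns too, with *Slc6a20a* and *Slc6a13* highest in pericytes, *Slc43a3* in fenestrated cells, and *Slc13a3* and *Slco2b1* in microglia. It leaves out the fibroblast-like cells, which were few.

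**Figure D1:**
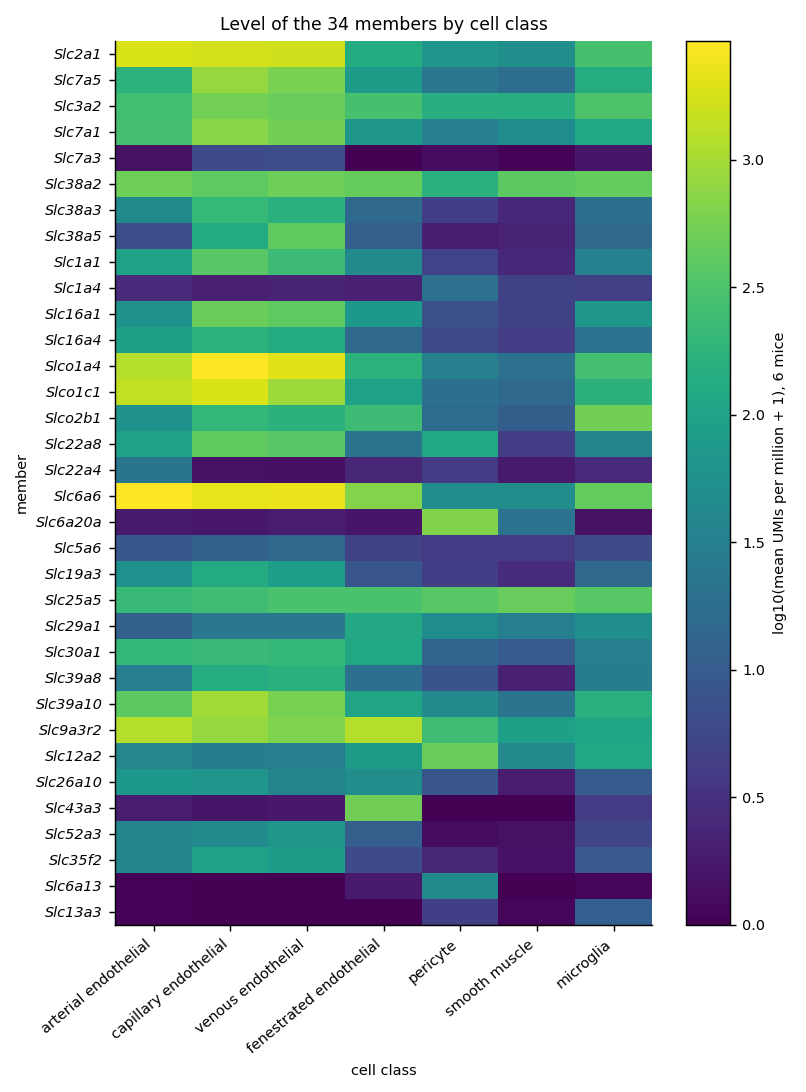
Mean level of each of the 34 members (rows) in 7 cell classes (columns), drawn as colour on the scale log10 of the mean CPM over 6 mice plus 1. Most members are highest in the barrier endothelial zones, while *Slc43a3* stands out in fenestrated cells at 514 CPM and *Slc6a20a* in pericytes at 649.

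Arterial cells held less of most carriers than capillary cells did. Of the 29 members tested between these zones, 21 were lower and 7 higher in arterial cells by edgeR's quasi-likelihood test with the mouse as a block, at an adjusted p under 0.05, and *Slc30a1*, a zinc exporter, was the 1 not called (log2 fold change -0.051 ± 0.041 SE). Over all genes 26.8% were called lower and 26.0% higher, and of the 172 other solute carriers tested 34 were lower and 49 higher. The median log2 fold change was -1.03 for the members, -0.02 for all genes, and 0.02 for the other solute carriers. *Slc1a4*, *Slc6a20a*, *Slc43a3*, *Slc6a13*, and *Slc13a3* had too few UMIs in these zones to be tested. Among those called, *Slc22a4* passed the filter on low counts through arterial cells only and *Slc7a3* through capillary cells only. Their directions were therefore given in advance.

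Fewer members were called between venous and capillary cells. Of 28 members tested, 14 were lower and 7 higher in venous cells (edgeR, adjusted p under 0.05), against 19.9% and 20.7% of all genes, and the median was -0.14 against -0.01 for all genes. Of the 157 other solute carriers 32 were lower and 24 higher. Not called were *Slc2a1*, *Slc3a2*, *Slc7a3*, *Slco2b1*, *Slc29a1*, *Slc30a1*, and *Slc12a2*. *Slc22a4* joined the members that could not be tested.

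**Figure D2:**
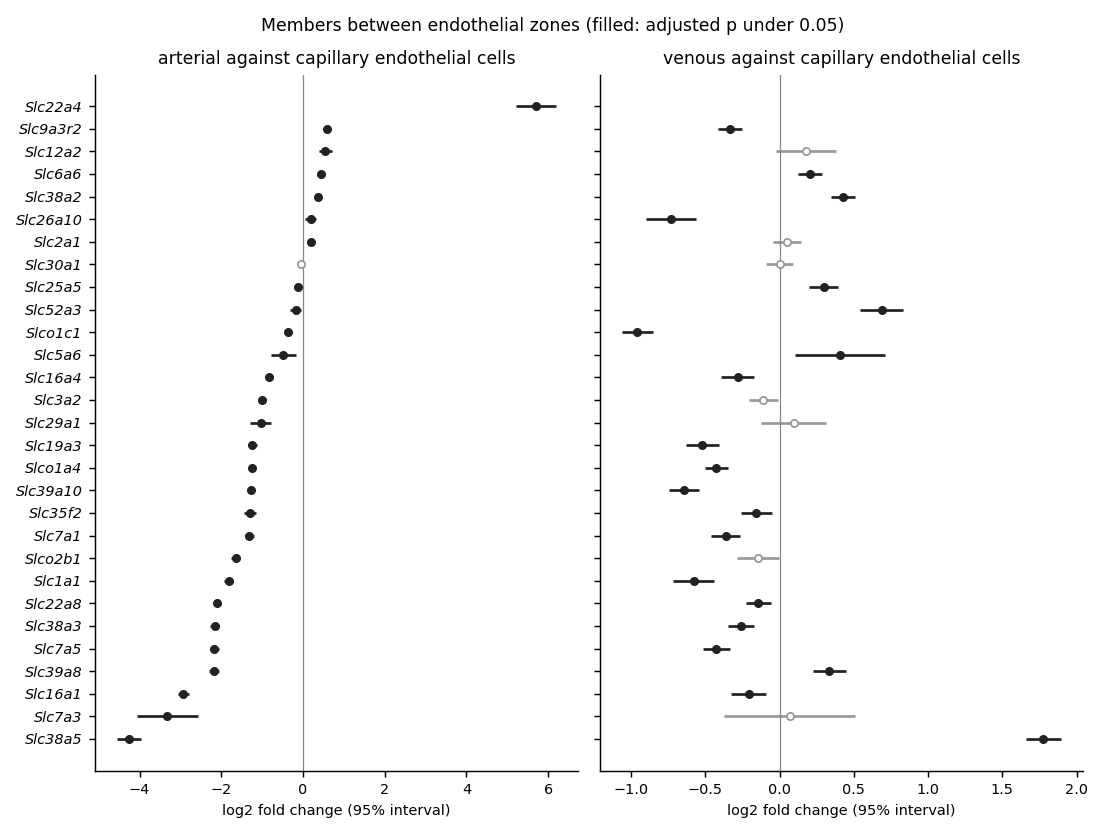
Log2 fold change with its 95% interval of each tested member in arterial (29 members) and venous (28 members) against capillary endothelial cells, in 6 mice with the mouse as a block, filled points being called at an adjusted p under 0.05. The arterial values run from -4.26 for *Slc38a5* to 5.70 for *Slc22a4*, and *Slc38a5* is the highest of the venous ones at 1.77.

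The glucose carrier varied little between the zones. *Slc2a1*, which encodes GLUT1, the carrier that supplies the brain with glucose, had levels of 1669.7, 1811, and 2034 CPM (lowest, median, and highest of the 6 mice) in arterial cells, 1586, 1666, and 1848 in capillary cells, and 1449.5, 1587, and 2013 in venous cells. These ranges overlapped. The arterial excess over capillary cells was 0.18 ± 0.034 SE on the log2 scale (adjusted p = 6.74e-05, edgeR), and it was lost when the mouse was not a term of the fit, while the venous difference of 0.048 had a 95% interval from -0.046 to 0.14. Arterial cells were not alike. In a subcluster led by *Gkn3* and *Vegfc* the level was 2434 ± 162, in another led by *Mgp*, *Fbln5*, and *Eln* it was 1072 ± 211, and in one more led by *Cdh13* and *S100a6* it was 780.1 ± 117. The last 2 held as few as 24 and 13 cells of a mouse, and levels of subclusters are given as a description, with no test.

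Carriers of neutral and cationic amino acids were lower in arterial cells. *Slc7a5* encodes LAT1, which exchanges large neutral amino acids and also carries L-DOPA, and its levels were 137 to 209.6 in arterial cells (median 177), 752 to 876 in capillary cells (median 826), and 499 to 687 in venous cells (median 570.4). The 3 ranges did not overlap. On the log2 scale this was -2.17 ± 0.051 (adjusted p = 2.16e-21, edgeR) for arterial and -0.43 ± 0.044 (adjusted p = 2.68e-08, edgeR) for venous against capillary cells. *Slc3a2*, the heavy chain that LAT1 needs to reach the membrane, was lower in arterial cells too (-1.0 ± 0.049), where it lay at 261 ± 18.9 against 543 ± 52.5 in capillary cells, and in venous cells it was not called (-0.11 ± 0.048, adjusted p = 0.0702, edgeR). *Slc7a1*, the cationic amino acid carrier CAT1, lay at 279 ± 38.2 in arterial, 715 ± 62.3 in capillary, and 529.7 ± 77.3 in venous cells, and both differences from capillary cells were called (-1.31 and -0.36). Its relative *Slc7a3* had 209 UMIs in all capillary cells and 11 in all arterial cells, a difference of -3.32 ± 0.36 that was called, with its direction given in advance.

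The sodium-coupled neutral amino acid carriers of the *Slc38* family went different ways. *Slc38a5*, a glutamine carrier, had levels of 0 to 10.4 in arterial cells (median 6.36), 73.0 to 173 in capillary cells (median 139), and 269 to 563 in venous cells (median 406). No range overlapped another. The log2 difference from capillary cells was -4.26 ± 0.14 (adjusted p = 2.16e-18, edgeR) in arterial and 1.77 ± 0.057 (adjusted p = 1.77e-17, edgeR) in venous cells. Within the venous class it was 559.6 ± 132 in a subcluster led by *Vcam1* and *Vwf* and 344 ± 68.3 in another led by *Icam1* and immediate early genes such as *Fos* and *Junb*.

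*Slc38a3*, another glutamine carrier, was highest in capillary cells at 208 ± 31.0, against 44.3 ± 4.48 in arterial and 165 ± 26.2 in venous cells (-2.17 and -0.26, both called, the second not without the mouse as a term). *Slc38a2*, which is induced by amino acid shortage in many cells, was lowest in capillary cells, at 399 ± 52.2, and was higher in arterial (0.36 ± 0.035) and venous cells (0.43 ± 0.039). The venous excess of *Slc38a2* was lost when solute carriers were kept in the clustering. It was also lost at the finer clustering, at which the venous class held 58 to 292 cells per mouse. In the subclusters led by immediate early genes it was 552 ± 66.2 and 569.8 ± 69.7 (capillary), 564 ± 44.4 (venous), and 565 ± 71.5 (arterial), and in the 4 other capillary subclusters it was 226 ± 27.1, 419 ± 61.0, 174 ± 32.4, and 482.5 ± 117. *Slc1a1*, the glutamate and cysteine carrier EAAT3, lay at 99.6 ± 19.5 in arterial, 365 ± 32.9 in capillary, and 234 ± 38.5 in venous cells (-1.82 and -0.58, both called). Pooled over mice, *Slc1a1* was 313 in the venous subcluster led by *Icam1* and 76.8 in that led by *Vcam1* and *Vwf*. In the same order *Slc7a1* was 643 and 284 and *Slc39a10* 707 and 357, while *Slc38a5* went the other way. Venous levels of these members therefore average unlike subclusters.

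*Slc16a1*, the carrier MCT1 of lactate and ketone bodies, was the member with the largest arterial deficit after *Slc38a5* and *Slc7a3*. Its levels were 51.8 to 66.5 in arterial cells (median 60.3), 379 to 606 in capillary cells (median 442), and 273 to 572 in venous cells (median 389). Arterial cells stood apart, with a log2 difference of -2.93 ± 0.063 (adjusted p = 3.35e-22, edgeR), and the small venous deficit of -0.21 ± 0.057 was lost without the mouse as a term. The related *Slc16a4* lay at 93.5 ± 8.36 in arterial, 172 ± 18.5 in capillary, and 135 ± 19.7 in venous cells (-0.83 and -0.28, both called, the second again not without the mouse term).

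The organic anion carriers differed in where they were lowest. *Slco1a4*, which carries bile acids, steroid conjugates, and many drugs, had levels of 1073 to 1355 in arterial (median 1183), 2584 to 3118 in capillary (median 3006), and 1881 to 2183 in venous cells (median 2112), with no overlap between zones. Its log2 differences from capillary cells were -1.25 ± 0.037 in arterial and -0.42 ± 0.039 in venous cells. *Slco1c1*, the carrier of thyroxine, was instead lowest in venous cells, at 767 to 1091 (median 901), against 1232 to 1598 in arterial (median 1355) and 1706 to 2039 in capillary cells (median 1836). Here the log2 difference was -0.37 ± 0.042 (adjusted p = 5.01e-08, edgeR) in arterial and -0.96 ± 0.051 (adjusted p = 1.72e-13, edgeR) in venous cells. Within classes the spread was wider, from 2288 ± 135 in the arterial subcluster led by *Gkn3* and *Vegfc* to 251 ± 64.8 in that led by *Mgp*, *Fbln5*, and *Eln*, and from 1146 ± 76.0 to 448 ± 87.9 between the venous subclusters led by *Icam1* and by *Vcam1*. Reads of *Slco1a4* can be shared with its near relatives of the *Slco1a* family.

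*Slco2b1*, a carrier of steroid sulfates, lay at 59.8 ± 10.4 in arterial, 194 ± 17.6 in capillary, and 168 ± 49.8 in venous cells, and the arterial difference of -1.65 was called. *Slc22a8*, the organic anion carrier OAT3, lay at 95.1 ± 10.5, 420.3 ± 33.1, and 362 ± 39.4 in the same order (-2.11 and -0.14, both called, the venous one not without the mouse as a term).

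**Figure D3:**
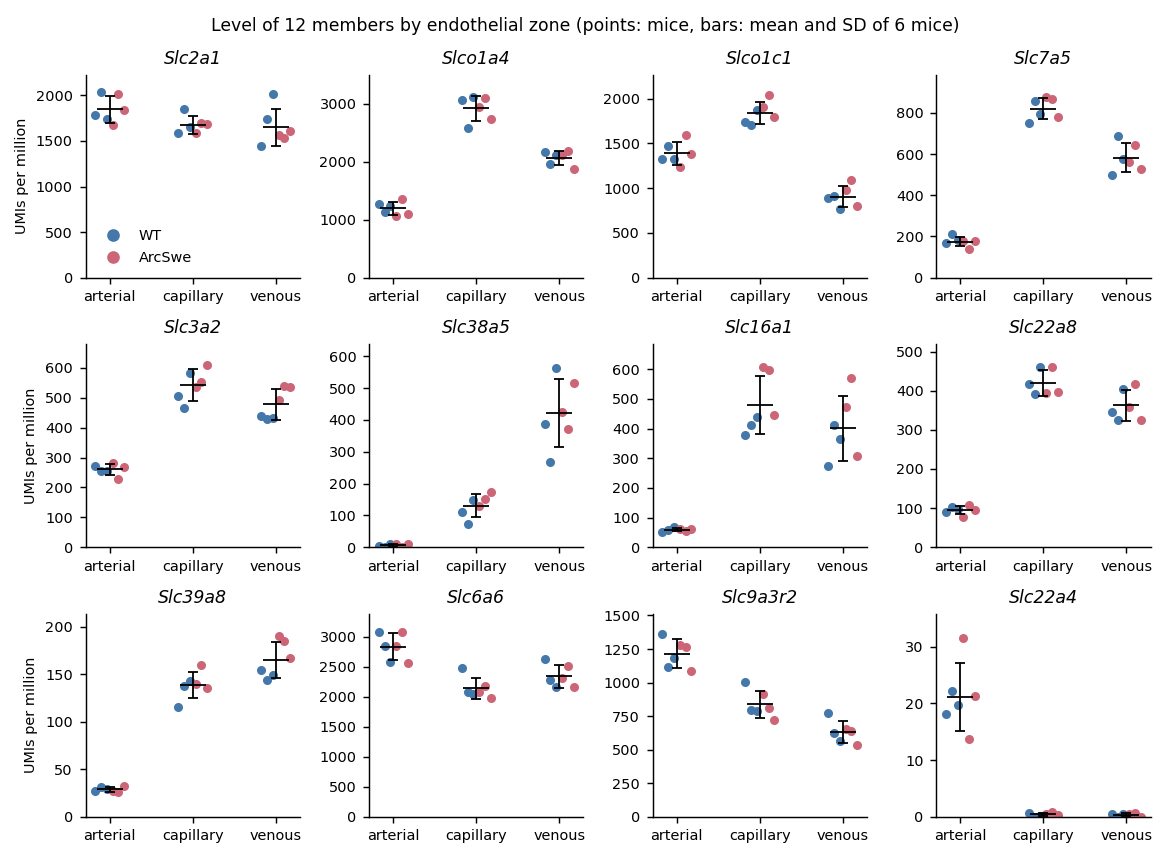
Level in CPM of 12 members in arterial, capillary, and venous endothelial cells, with 1 point per mouse (3 WT in blue, 3 ArcSwe in red) and bars for the mean and SD of the 6 mice. *Slc38a5* climbs from arterial to venous cells, *Slco1c1* is lowest in venous cells, *Slc22a4* is present in arterial cells at 13.8 to 31.6, and *Slc2a1* overlaps between all zones.

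*Slc22a4* had the largest zone difference of the members. It encodes OCTN1, the carrier of the antioxidant ergothioneine, and its levels were 13.8 to 31.6 in arterial cells (median 20.5), with 485 UMIs in all, while capillary cells of all mice held 16 UMIs and venous cells 5. The log2 difference between arterial and capillary cells was 5.70 ± 0.24 (adjusted p = 2.46e-16, edgeR). *Slc22a4* entered this fit through its arterial counts, so its direction was given in advance. Within arterial cells the level was 156 ± 45.2 in the subcluster led by *Cdh13* and *S100a6*, which also had *Pi16* among its leading genes, with the lowest mouse at 109.5. In the other 4 arterial subclusters it was 18.2 ± 2.54, 1.18 ± 0.695, 18.2 ± 12.7, and 2.34 ± 3.71. The subcluster of high level had 13 to 91 cells per mouse.

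To set the sequence before the start of genes with unlike courses side by side, the 250 bases upstream of the RefSeq start of 4 members are given 5′ to 3′ on the strand of the gene (build GRCm38.p6), with matches of 1 motif each in capitals. *Slco1a4* and *Slco1c1* are related genes with unlike venous levels, and *Slc16a1* and *Slc22a4* are far apart in the arterial comparison. The capitals in the first pair mark CTTTGNT and in the second pair CACGTG, an E-box. CTTTGNT is a looser form of the core letters bound by TCF and LEF factors of the Wnt pathway. Any base was allowed at N, so a match need not be that core. The windows are chr6:141856221-141856470 on the minus strand, chr6:141524104-141524353 on the plus strand, chr3:104638414-104638663 on the plus strand, and chr11:54028105-54028354 on the minus strand.
Slco1a4: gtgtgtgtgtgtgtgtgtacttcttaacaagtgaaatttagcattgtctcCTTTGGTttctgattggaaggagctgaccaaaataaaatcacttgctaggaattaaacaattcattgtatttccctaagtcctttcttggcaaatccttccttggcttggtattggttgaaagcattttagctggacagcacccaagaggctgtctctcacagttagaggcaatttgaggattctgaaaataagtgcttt
Slco1c1: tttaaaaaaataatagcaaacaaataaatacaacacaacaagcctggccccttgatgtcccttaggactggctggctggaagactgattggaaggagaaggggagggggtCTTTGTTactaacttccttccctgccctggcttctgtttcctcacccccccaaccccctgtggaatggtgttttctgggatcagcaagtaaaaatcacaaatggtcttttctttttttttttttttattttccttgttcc
Slc16a1: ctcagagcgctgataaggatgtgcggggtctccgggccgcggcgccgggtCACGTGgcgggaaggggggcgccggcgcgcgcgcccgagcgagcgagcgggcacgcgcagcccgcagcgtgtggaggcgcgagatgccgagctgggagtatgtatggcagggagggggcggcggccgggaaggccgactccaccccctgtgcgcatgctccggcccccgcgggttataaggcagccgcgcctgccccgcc
Slc22a4: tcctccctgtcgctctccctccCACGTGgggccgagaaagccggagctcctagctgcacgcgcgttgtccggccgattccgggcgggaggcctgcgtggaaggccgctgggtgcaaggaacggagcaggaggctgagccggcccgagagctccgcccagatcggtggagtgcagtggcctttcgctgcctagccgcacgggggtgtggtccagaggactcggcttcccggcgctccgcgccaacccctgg

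Each motif was scored by itself, so a window can hold both, and both were searched on both strands in the 250 bases before every RefSeq start, which gave 43 windows for 27 members, while *Slc7a5*, *Slc7a3*, *Slc38a3*, *Slc6a6*, *Slc12a2*, *Slc43a3*, and *Slc52a3* had no entry. CTTTGNT was in 10 of the 43 windows (23.3%), of 9 members, and in 16.0% of all 32851 windows. The match lay 200 bases before the start of *Slco1a4* and 140 before that of *Slco1c1*. CACGTG was in 6 of the 43 windows (14%), of 6 members, and in 6.02% of all windows, and the members were *Slc38a5*, *Slc16a1*, *Slc22a4*, *Slc29a1*, *Slc39a8*, and *Slc13a3*, which were high in different zones and cell types. It lay 200 bases before the start of *Slc16a1* and 228 before that of *Slc22a4*. A match in these letters is a description and not a binding site.

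Carriers of vitamins, zinc, and nucleosides were mostly lower in arterial cells as well. *Slc19a3*, a thiamine carrier, lay at 53.5 ± 4.61 in arterial, 129.5 ± 15.3 in capillary, and 86.8 ± 11 in venous cells (-1.24 and -0.52, both called). *Slc52a3*, a riboflavin carrier, was instead highest in venous cells at 67.7 ± 11.9, against 44.8 ± 3.83 in capillary cells (0.69 ± 0.07, adjusted p = 1.94e-08, edgeR), and its small arterial deficit of -0.18 was lost in 5 of 15 alternatives. *Slc5a6*, the carrier of biotin and pantothenate, had -0.49 in arterial cells, a call lost in 2 of 15 alternatives, and 0.41 in venous cells, a call lost in 10.

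*Slc39a8*, a carrier of zinc and manganese, had levels of 25.9 to 32.8 in arterial (median 28.3), 116 to 159.7 in capillary (median 139), and 144 to 190.0 in venous cells (median 161). Arterial cells stood apart, and capillary and venous cells overlapped. Both differences from capillary cells were called (-2.18 ± 0.061 in arterial and 0.34 ± 0.054 in venous cells). *Slc39a10*, another zinc carrier, was highest in capillary cells at 968 ± 41.0, against 389 ± 22.3 in arterial and 589 ± 45.7 in venous cells (-1.27 and -0.64, both called). *Slc29a1*, the nucleoside carrier ENT1, was lower in arterial cells, at 10.5 ± 2.61 against 23.7 ± 3.84 in capillary cells (-1.03 ± 0.12), and *Slc35f2* lay at 37.5 ± 5.75 against 96.2 ± 6.25 (-1.30 ± 0.072). The venous difference of *Slc35f2* was -0.16 and was lost in 5 of 15 alternatives.

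The members that were higher in arterial cells besides *Slc22a4*, *Slc2a1*, and *Slc38a2* were *Slc6a6*, *Slc9a3r2*, *Slc12a2*, and *Slc26a10*. *Slc6a6*, the taurine carrier, had 2571 to 3083 in arterial (median 2854), 1980.3 to 2478 in capillary (median 2085), and 2159 to 2634 in venous cells (median 2297). Arterial and capillary cells did not overlap, and the log2 difference was 0.45 ± 0.035 (adjusted p = 4.27e-11, edgeR). The venous excess of *Slc6a6* (0.21) was lost in 3 of 15 alternatives. It reached 3790 ± 321 in the arterial subcluster led by *Cdh13* and *S100a6* and was 944 ± 194 in that led by *Mgp*, *Fbln5*, and *Eln*. *Slc9a3r2*, the scaffold NHERF2, lay at 1216 ± 105 in arterial, 837 ± 102 in capillary, and 631 ± 82.6 in venous cells (0.59 and -0.33, both called). *Slc12a2*, the sodium, potassium, and chloride cotransporter NKCC1, lay at 39.2 ± 6.19 in arterial and 27.6 ± 2.64 in capillary cells (0.55 ± 0.081).

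*Slc26a10* was lower in venous cells (-0.73 ± 0.081), while its arterial excess of 0.19 was lost in 8 of 15 alternatives. Its highest levels among the subclusters lay outside the named zones, at 221 ± 26.4 in a subcluster led by *Apold1*, *Fos*, and other immediate early genes and 189 ± 23.2 in another led by *Cxcl12* and *Cdk19*, both left between the zones for their mixed zone markers. *Slc25a5*, the ADP and ATP carrier of mitochondria, had -0.13 in arterial and 0.30 in venous cells, both called. The arterial call was lost under DESeq2 and without the mouse as a term. The venous call was lost at the finer clustering, its value turned negative when solute carriers were kept in the clustering, and reads of its processed copies in the genome can be counted with it.

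Pericytes held few of the barrier carriers and led in others. Of the 32 members tested, 25 were higher in endothelial cells and 5 higher in pericytes (edgeR, adjusted p under 0.05 and at least 2-fold), against 17.3% and 13.3% of all genes, with a median log2 fold change of 4.08 for the members and 0.10 for all genes. Of the 180 other solute carriers 35 were higher in endothelial cells and 38 in pericytes. The filter on low counts kept 11 members in pericytes alone, so many others, such as *Slc52a3* and *Slc38a5*, entered through their endothelial counts. For those the direction was given in advance, and the counts describe a list chosen for the barrier. *Slc6a20a* and *Slc6a13* did not pass the filter in endothelial cells alone and entered through pericytes, so their direction was given in advance too. *Slc6a20a*, a proline carrier, had 384, 604, and 1047 CPM (lowest, median, and highest mouse) in pericytes and 0.349 to 1.37 in endothelial cells, a log2 difference of -9.78 ± 0.16 (endothelial against pericyte, adjusted p = 1.54e-30, edgeR). Its reads can be shared with the paralogue *Slc6a20b*. *Slc6a13*, the GABA and taurine carrier GAT2, had 15.1 to 88.9 in pericytes, with 85 UMIs in all, and 5 UMIs in all endothelial cells (-9.40 ± 0.54). *Slc12a2* had 347 to 676 in pericytes against 28.8 to 35.0 in endothelial cells (-3.83 ± 0.13), and *Slc1a4*, a carrier of serine and other small neutral amino acids, 4.96 to 33.1 against 0.642 to 2.29 (-3.73 ± 0.44). The fifth was *Slc29a1*, at 48.0 ± 16.0 against 19.6 ± 1.86 (-1.15 ± 0.21), a call lost in 2 of 15 alternatives.

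The pericyte samples were small, with 41 to 235 cells per mouse, and the median of the 11 endothelial markers stood in them at 1.80% of the endothelial level. The 7 fibroblast markers summed to 268 to 388 CPM in WT and 278 to 536 in ArcSwe pericytes, with *Pdgfra* at 0, and their part in the pericyte levels was not tested. In the 25 fibroblast-like cells of all mice *Slc6a13* had 7 UMIs, *Slc6a20a* 3, and *Slc22a8* 0. On the CPM scale *Slc6a13* was at 0 to 92.7 there (mean 26.1), overlapping the pericyte levels (mean 43.8). Whether it is higher in pericytes than in fibroblasts was not tested. *Slco1a4* stood at 1.24% and *Slco1c1* at 1.04% of their endothelial level (medians over mice), while *Slc22a8* stood at 40.5%, *Slc3a2* at 31.9%, and *Slc38a2* at 31.8%. *Slc22a8* had 47.6 to 187 in pericytes (median 117) and 279 to 346 in endothelial cells, with a difference of 1.40 ± 0.16. *Slc2a1* had 37.7 to 96.6 in pericytes against 1562 to 1835 in endothelial cells (4.74 ± 0.16). *Slc22a4* and *Slc25a5* were not called. *Slc7a3*, *Slc38a5*, *Slc52a3*, and *Slc35f2* had 1 to 3 UMIs in all pericytes, so no fold is given for these 4, which were called higher in endothelial cells. The call of *Slc7a3* was lost in 6 of 15 alternatives, and that of *Slc38a2* in 1, the stricter cell filter. In pericytes 16 members had fewer than 10 UMIs in every mouse. The log2 difference of the other members higher in endothelial cells was, among carriers of amino acids, 4.61 for *Slc7a5*, 1.75 for *Slc3a2*, 4.26 for *Slc7a1*, 1.65 for *Slc38a2*, 5.63 for *Slc38a3*, 6.49 for *Slc1a1*, and 5.72 for *Slc6a6*. Among carriers of glucose and monocarboxylates it was 5.49 for *Slc16a1* and 4.47 for *Slc16a4*. For carriers of organic ions it was 6.06 for *Slco1a4*, 6.37 for *Slco1c1*, and 3.07 for *Slco2b1*. Among carriers of vitamins it was 1.86 for *Slc5a6* and 4.67 for *Slc19a3*. For carriers of zinc it was 4.13 for *Slc30a1*, 4.04 for *Slc39a8*, and 4.12 for *Slc39a10*. For other members it was 2.06 for *Slc9a3r2* and 3.73 for *Slc26a10*.

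Smooth muscle cells held little of most barrier carriers. Of 31 members tested 25 were higher in endothelial cells and 3 in smooth muscle cells, against 19.9% and 16.9% of all genes (edgeR, adjusted p under 0.05 and at least 2-fold), with a median of 4.93 against 0.04 for all genes. Of the 189 other solute carriers 44 were higher in endothelial cells and 42 in smooth muscle cells. The filter on low counts kept 16 members in smooth muscle cells alone. Many others entered through their endothelial counts, with their direction given in advance, so these counts too describe the list. *Slc6a20a* entered through smooth muscle cells, and its direction was given in advance as well. Among carriers of nutrients the log2 difference was 4.80 ± 0.11 for *Slc2a1* (52.1 ± 14.5 in smooth muscle), 4.84 ± 0.12 for *Slc7a5*, 5.92 ± 0.19 for *Slc16a1*, 5.35 ± 0.091 for *Slc6a6*, and 7.14 ± 0.14 for *Slc1a1*. It was 6.46 ± 0.13 for *Slco1c1* and 6.56 ± 0.14 for *Slco1a4*. The median of the 11 endothelial markers stood in smooth muscle cells at 0.72% of the endothelial level. Beside it *Slc1a1* stood at 0.48%, *Slco1a4* at 0.79%, *Slco1c1* at 0.89%, and *Slc16a1* at 0.99%. *Slc6a6* at 2.04%, *Slc7a5* at 2.65%, and *Slc2a1* at 3.17% stood higher (medians over mice). The part of endothelial RNA in these folds was not tested. Higher in smooth muscle cells were *Slc6a20a* (19.7 ± 5.96, log2 difference -5.03), *Slc1a4* (3.62 ± 1.76, -1.70), and *Slc25a5* (457 ± 25.6 against 251 ± 22.1, -1.06). The call of *Slc25a5* at 2-fold was lost in 2 of 15 alternatives. *Slc38a2*, *Slc29a1*, and *Slc12a2* were not called at 2-fold, and *Slc43a3* and *Slc6a13* had 0 UMIs there. *Slc7a3* had 1 UMI in all smooth muscle cells and is given no fold. The log2 difference of the remaining members higher in endothelial cells was, among carriers of amino acids, 1.45 for *Slc3a2*, 3.29 for *Slc7a1*, 6.51 for *Slc38a3*, and 6.47 for *Slc38a5*. Among carriers of glucose and monocarboxylates it was 5.15 for *Slc16a4*. For carriers of organic ions it was 3.57 for *Slco2b1*, 6.22 for *Slc22a8*, and 2.42 for *Slc22a4*. Among carriers of vitamins it was 1.39 for *Slc5a6*, 5.58 for *Slc19a3*, and 6.57 for *Slc52a3*. For carriers of zinc it was 4.30 for *Slc30a1*, 6.22 for *Slc39a8*, and 4.93 for *Slc39a10*. For other members it was 3.18 for *Slc9a3r2*, 6.03 for *Slc26a10*, and 6.84 for *Slc35f2*.

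Between the mural cell types, 5 of 17 members tested were higher in pericytes and 1 in smooth muscle cells, against 8.79% and 8.4% of all genes (edgeR, adjusted p under 0.05 and at least 2-fold). The 11 not called were *Slc39a10*, *Slc2a1*, *Slc7a1*, *Slc6a6*, *Slco1c1*, *Slco1a4*, *Slco2b1*, *Slc7a5*, *Slc29a1*, *Slc3a2*, and *Slc25a5*, and 17 could not be tested. The log2 difference was 4.95 ± 0.25 for *Slc22a8*, 4.88 ± 0.17 for *Slc6a20a*, 3.37 ± 0.11 for *Slc12a2*, and 1.23 ± 0.11 for *Slc9a3r2*. *Slc6a13* was at least 220.2-fold higher in pericytes, taking 3 UMIs over all smooth muscle cells as the floor for a count of 0. *Slc6a13* and *Slc22a8* did not pass the filter on low counts in smooth muscle cells alone and entered through pericytes, so their direction was given in advance. *Slc38a2* was higher in smooth muscle cells, at 385 ± 28.2 against 159.9 ± 70.6 (-1.56 ± 0.16), which was not called with the stricter cell filter. *Slc6a13* could not be tested without ArcSwe replicate 3. The count of called members moved to 11 with no filter on low counts and to 3 with the stricter cell filter.

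Fenestrated endothelial cells held few of the carriers of the barrier. Of 30 members tested 20 were higher in barrier endothelium and 3 in fenestrated cells, against 9.03% and 8.32% of all genes (edgeR, adjusted p under 0.05 and at least 2-fold). The median log2 fold change was 2.40 for the members, or 2.16 with *Slc7a3* at its bound, and 0.04 for all genes. *Slc7a3* had 0 UMIs in fenestrated cells and was at least 3.74-fold higher in barrier cells. In fenestrated cells 10 members had fewer than 10 UMIs in every mouse, and the direction of those tested was largely given in advance. *Slc2a1* had 44.0, 132, and 266 (lowest, median, and highest mouse) in fenestrated cells and 1562 to 1835 in barrier endothelium, a log2 difference of 3.76 ± 0.20. *Slco1c1* had 2.32 to 282 (median 58.6) against 1412 to 1687 (4.19 ± 0.30), and *Slco1a4* 62.9 to 404 (median 125) against 2036 to 2449 (3.85 ± 0.21). The groups did not overlap in any of the 3. Of the 11 endothelial markers the lowest in fenestrated cells were *Cldn5*, *Lsr*, and *Ocln*, at 3.91%, 6.12%, and 6.14% of their barrier level. The median marker stood at 90.9%. *Slco1c1* stood at 4.03%, *Slco1a4* at 5.33%, and *Slc2a1* at 8.01% (medians over mice). The part of barrier RNA in these levels was not tested. For the rest of the members higher in barrier cells the log2 difference was, among carriers of amino acids, 2.94 for *Slc7a5*, 3.06 for *Slc7a1*, 3.32 for *Slc38a3*, 3.83 for *Slc38a5*, 2.69 for *Slc1a1*, and 1.88 for *Slc6a6*. Among carriers of glucose and monocarboxylates it was 2.23 for *Slc16a1* and 3.29 for *Slc16a4*. For carriers of organic ions it was 3.79 for *Slc22a8* and 2.03 for *Slc22a4*, which had 4 UMIs in all fenestrated cells and was not called without ArcSwe replicate 1 (1.81). Among carriers of vitamins it was 1.33 for *Slc5a6*, 3.86 for *Slc19a3*, and 2.09 for *Slc52a3*. For carriers of zinc it was 2.58 for *Slc39a8* and 2.85 for *Slc39a10*. For other members it was 3.82 for *Slc35f2*.

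*Slc43a3*, a carrier of purine nucleobases, was the member that set fenestrated cells apart. Its levels there were 440.5 to 596 (median 512), while all barrier endothelial cells held 60 UMIs, at 0.450 to 0.864 CPM, and pericytes and smooth muscle cells held 0. The log2 difference was -9.66 ± 0.12 (barrier against fenestrated, adjusted p = 3.85e-25, edgeR). *Slc43a3* did not pass the filter on low counts in barrier cells alone and entered through its fenestrated counts, so its direction was given in advance. *Slc29a1* was higher in fenestrated cells too, at 122 ± 16.3 against 19.6 ± 1.86 (-2.65 ± 0.11), as was *Slc12a2*, at 76.6 ± 11.5 against 32.0 ± 2.38 (-1.26 ± 0.12). Not called at 2-fold were *Slc9a3r2*, *Slco2b1*, *Slc26a10*, *Slc38a2*, *Slc3a2*, *Slc30a1*, and *Slc25a5*.

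A small set of members was higher in microglia than in barrier endothelium. Of 31 tested 22 were higher in endothelial cells and 5 in microglia, against 19.7% and 23.2% of all genes (edgeR, adjusted p under 0.05 and at least 2-fold), with a median of 2.32 for the members and 0.00 for all genes. Of the 194 other solute carriers tested 36 were higher and 76 lower in endothelial cells. The filter on low counts kept 29 members in microglia alone. *Slc7a3*, *Slc22a4*, and *Slc52a3* entered through their endothelial counts and *Slc13a3* through microglia. For each of these the direction was given in advance. *Slco2b1* had 345, 453, and 826.5 (lowest, median, and highest mouse) in microglia and 123 to 167 in endothelial cells (-2.05 ± 0.18). *Slc12a2* had 103 to 133 against 28.8 to 35.0 (-2.10 ± 0.12), *Slc29a1* 31.7 to 69.3 against 17.1 to 21.9 (-1.60 ± 0.17), and *Slc1a4* 1.53 to 4.92 against 0.642 to 2.29 (-1.71 ± 0.44). *Slc13a3*, the sodium-coupled dicarboxylate carrier NaDC3, had 2.60 to 16.9, with 169 UMIs in all, against 8 UMIs in all endothelial cells (-6.78 ± 0.55). The levels in microglia and endothelium overlapped for *Slc1a4* and for none of the other 4. *Slc5a6*, *Slc38a2*, *Slc3a2*, and *Slc25a5* were not called at 2-fold, and *Slc6a20a*, *Slc43a3*, and *Slc6a13* could not be tested. The log2 difference of members higher in endothelial cells than in microglia was, among carriers of amino acids, 1.88 for *Slc7a5*, 2.02 for *Slc7a1*, 2.39 for *Slc7a3*, 2.99 for *Slc38a3*, 3.44 for *Slc38a5*, 3.05 for *Slc1a1*, and 2.32 for *Slc6a6*. Among carriers of glucose and monocarboxylates it was 2.48 for *Slc2a1*, 2.06 for *Slc16a1*, and 2.72 for *Slc16a4*. For carriers of organic ions it was 3.21 for *Slco1a4*, 3.29 for *Slco1c1*, 3.03 for *Slc22a8*, and 1.53 for *Slc22a4*. Among carriers of vitamins it was 2.78 for *Slc19a3* and 3.19 for *Slc52a3*. For carriers of zinc it was 2.63 for *Slc30a1*, 1.71 for *Slc39a8*, and 2.02 for *Slc39a10*. For other members it was 3.19 for *Slc9a3r2*, 2.96 for *Slc26a10*, and 3.06 for *Slc35f2*.

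Beside these levels stands the endothelial RNA in the microglial class. The 11 endothelial markers were at 7.83 to 12.99% of their endothelial level in microglia (medians over the 6 mice), with the median marker at 8.48%. *Slc38a5* at 6.67%, *Slco1c1* at 8.09%, *Slc38a3* at 8.74%, *Slc35f2* at 8.86%, *Slco1a4* at 9.03%, *Slc9a3r2* at 9.38%, *Slc22a8* at 9.99%, *Slc1a1* at 10.1%, and *Slc19a3* at 12.0% stood in or just below that range. *Slc2a1* at 14.4%, *Slc6a6* at 16.1%, and *Slc16a1* at 18.8% stood somewhat above it. *Slc3a2* at 67.4%, *Slc38a2* at 96.8%, *Slc25a5* at 124.5%, *Slc29a1* at 256%, *Slco2b1* at 340.0%, and *Slc12a2* at 347% stood far above it.

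Carriers known from other cells were set beside the members as well. A list of 8 carriers of microglia and macrophages, among them *Slc2a5* and *Slc11a1*, summed to 1300 to 2174 CPM in microglia, 34.6 to 69.8 in endothelial cells, and 77.9 to 132 in pericytes. A list of 6 carriers of astrocytes and neurons, among them *Slc1a2* and *Slc17a7*, summed to 9.11 to 29.1 in endothelial cells, 112 to 246 in microglia, and 0 to 65.7 in pericytes. A list of 6 carriers of fibroblasts summed to 11 to 14 in endothelial cells, 13.6 to 98.9 in microglia, and 22.0 to 99.3 in pericytes. In the 93 choroid plexus-like cells of all mice, which were too few for a test, *Slco1c1* lay at 591 ± 153, *Slc12a2* at 358 ± 189, and *Slc6a20a* at 125 ± 83.3 CPM.

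**Figure D4:**
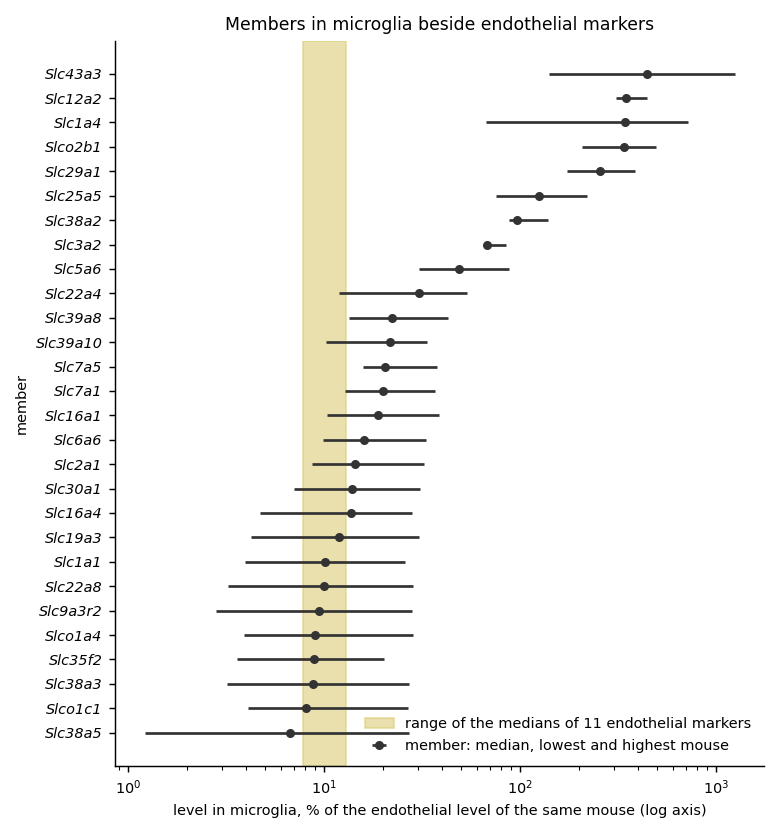
Level of 28 members in microglia as a percentage of the endothelial level of the same mouse, on a log axis, with the median (point) and range (bar) of 6 mice, and a band for the range of the medians of 11 endothelial markers, from 7.83 to 12.99%. Members such as *Slco1c1* and *Slco1a4* have medians in the band, and *Slc12a2* and *Slco2b1* lie at 347% and 340.0%.

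The genotype comparison asked whether the carriers of the vessel wall differed in mice with amyloid-β in brain and vessels. In all endothelial cells together none of the 30 members tested was called between ArcSwe and WT mice by edgeR or by DESeq2, and 3 had an unadjusted p under 0.05. Of all 13453 genes tested 0.0% were called by edgeR, with 591 at an unadjusted p under 0.05, and DESeq2 called 13. Of the members 22 were higher and 8 lower in ArcSwe mice, and their log2 fold changes had a median of 0.06. *Slc6a20a*, *Slc43a3*, *Slc6a13*, and *Slc13a3* could not be tested. In data simulated from these samples the test recovered 59.5% of 200 genes changed 2-fold and 3% of those changed 1.5-fold. At 2-fold it also called 9 unchanged genes. The changed genes were drawn at random from all genes, so the rates are not those of the members.

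The 3 members below an unadjusted p of 0.05 were *Slc16a1*, *Slc1a4*, and *Slc39a8*. *Slc16a1* had 239, 280.2, and 292 CPM in the 3 WT mice and 393, 415, and 288 in the ArcSwe mice, of which 2 lay above all WT mice. Its log2 fold change was 0.45 ± 0.16 with a 95% interval from 0.086 to 0.82 (adjusted p = 0.996, edgeR), and it ran from 0.34 to 0.60 over all alternatives. *Slc39a8* had 90.1, 99.3, and 104 in WT and 111, 125, and 106 in ArcSwe mice, without overlap (0.23 ± 0.096, adjusted p = 0.996, edgeR). *Slc1a4* had 0.775, 0.642, and 1.28 in WT and 2.29, 1.24, and 1.68 in ArcSwe mice, with overlap and 132 UMIs in all (1.00 ± 0.37, adjusted p = 0.996, edgeR).

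The main carriers of the barrier stayed within the spread between mice. *Slc2a1* had 1562, 1835, and 1714 in WT and 1604, 1732, and 1716 in ArcSwe mice, a log2 fold change of -0.0067 ± 0.12 with an interval from -0.29 to 0.28. *Slco1a4* had 2336, 2036, and 2339.7 in WT and 2210.2, 2449, and 2104 in ArcSwe mice (0.026 ± 0.12, interval from -0.25 to 0.30), and *Slco1c1* 1412, 1432, and 1498 in WT and 1504, 1687, and 1487 in ArcSwe mice (0.12 ± 0.11, interval from -0.13 to 0.38). The genotypes overlapped in all 3. *Slc7a5* had 534, 623, and 560.5 in WT and 602, 624, and 548.5 in ArcSwe mice (0.057 ± 0.12). *Slc6a6* had 2766, 2401, and 2288 in WT and 2398, 2505, and 2221 in ArcSwe mice (-0.055 ± 0.14). These overlapped as well.

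Among the other amino acid carriers the log2 fold change between genotypes was 0.17 ± 0.087 for *Slc3a2*, 0.023 ± 0.13 for *Slc7a1*, 0.028 ± 0.25 for *Slc7a3*, 0.086 ± 0.16 for *Slc38a2*, 0.21 ± 0.14 for *Slc38a3*, 0.40 ± 0.21 for *Slc38a5*, and -0.026 ± 0.13 for *Slc1a1*. The interval of *Slc38a5* ran from -0.085 to 0.88, with 118, 82.5, and 175 in WT and 155, 154, and 175 in ArcSwe mice. For organic anion and monocarboxylate carriers it was 0.21 ± 0.10 for *Slc16a4*, 0.059 ± 0.12 for *Slco2b1*, 0.062 ± 0.10 for *Slc22a8*, and 0.21 ± 0.28 for *Slc22a4*. For carriers of vitamins and nucleosides it was 0.24 ± 0.12 for *Slc5a6*, 0.20 ± 0.089 for *Slc19a3*, -0.053 ± 0.097 for *Slc52a3*, and 0.022 ± 0.11 for *Slc29a1*. For carriers of metals and ions it was -0.049 ± 0.14 for *Slc30a1*, 0.019 ± 0.099 for *Slc39a10*, and 0.10 ± 0.11 for *Slc12a2*. The remaining members stood at -0.32 ± 0.14 (*Slc26a10*), -0.06 ± 0.14 (*Slc9a3r2*), -0.048 ± 0.13 (*Slc25a5*), and 0.038 ± 0.073 (*Slc35f2*). The genotypes did not overlap in *Slc5a6*, higher in ArcSwe mice, or in *Slc26a10*, lower in ArcSwe mice. None of these members passed the test.

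**Figure D5:**
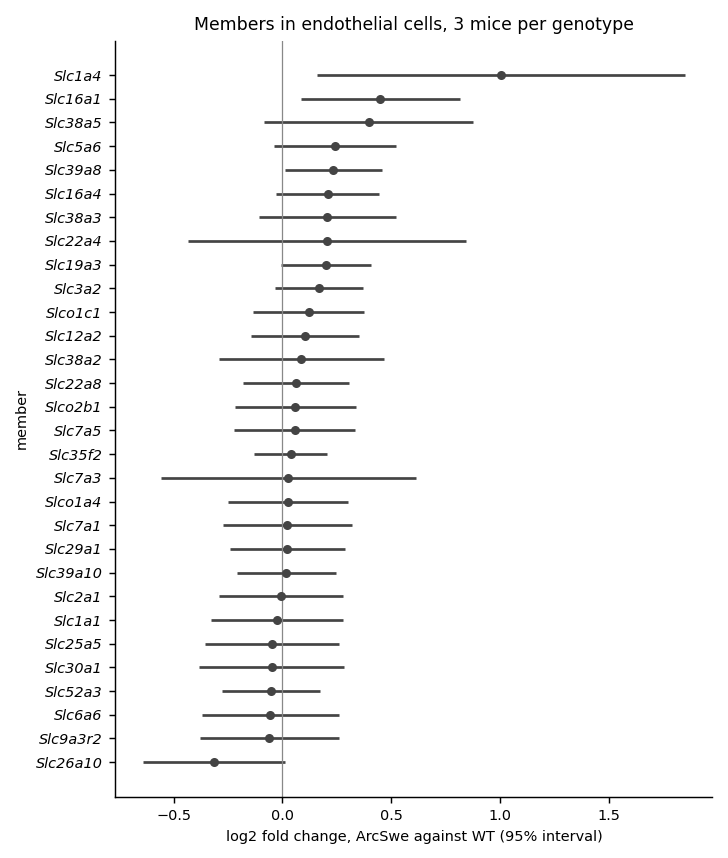
Log2 fold change between ArcSwe and WT mice (3 against 3) with its 95% interval for the 30 members tested in all endothelial cells. The points run from -0.32 for *Slc26a10* to 1.00 for *Slc1a4*, and none is called at an adjusted p under 0.05.

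No member was called between genotypes in a single zone either. Of the members tested in arterial (28), capillary (28), and venous cells (28), 0, 4, and 2 had an unadjusted p under 0.05, beside 467 of 11086, 560 of 11867, and 360 of 10109 among all genes. Called by edgeR were 0.00902%, 0.0%, and 0.0% of all genes. DESeq2 called no member, and 14, 10, and 1 of all genes. In arterial cells the largest changes were 0.60 ± 0.75 (*Slc38a5*, 0.18 to 1.77 over the alternatives) and -0.29 ± 0.14 (*Slc35f2*, -0.44 to -0.21). In capillary cells *Slc16a1* had 379, 412, and 439.7 in WT and 606, 595, and 445 in ArcSwe mice, without overlap (0.44 ± 0.14, adjusted p = 0.956, edgeR). *Slc38a5* (0.48 ± 0.20), *Slc16a4* (0.23 ± 0.10), and *Slc26a10* (-0.32 ± 0.11) were the other 3 there. The genotypes did not overlap in *Slc16a4* and *Slc26a10* either, and overlapped in *Slc38a5*. In venous cells *Slc39a8* (0.29 ± 0.11) and *Slc3a2* (0.29 ± 0.12) had an unadjusted p under 0.05, and *Slc5a6* (0.46 ± 0.30, 0.19 to 0.86 over the alternatives) and *Slc16a1* (0.38 ± 0.24, 0.11 to 0.60) had the largest changes. The genotype difference itself was compared between venous and capillary cells in a fit with the mouse as a block. None of 28 members was called in it by edgeR or DESeq2, against 0.0785% of all genes by edgeR and 7 genes by DESeq2. *Slc38a5* (-0.31 ± 0.095, adjusted p = 0.650) and *Slc1a1* (0.32 ± 0.12, adjusted p = 0.763) had an unadjusted p under 0.05 (edgeR), as did 615 of 11459 genes in all. The difference of *Slc1a1* ran from -0.34 to 0.43 over the alternatives and turned negative at the finer clustering and with solute carriers kept in the clustering.

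In pericytes 11 members could be tested, in smooth muscle cells 16, and in microglia 29, and none was called by edgeR or DESeq2, against 0.0%, 0.0%, and 0.0346% of all genes by edgeR. In the same order DESeq2 called 1 of 4882, 0 of 10025, and 104 of 11558 genes. In microglia 1 of these was another solute carrier. In pericytes *Slc6a13* had 44.1, 15.1, and 33.1 in WT and 52.0, 29.8, and 88.9 in ArcSwe mice (0.95 ± 0.44, unadjusted p = 0.0460, adjusted p = 1.0, edgeR), and *Slc38a2* had the next largest change (0.38 ± 0.35). The change of *Slc38a2* ran from -0.33 to 0.76 over the alternatives and turned negative in 4 of 15, among them the stricter cell filter and the finer clustering. In smooth muscle cells *Slc6a20a* had 13.8, 18.8, and 14.7 in WT and 18.1, 30.1, and 22.5 in ArcSwe mice (0.55 ± 0.24, unadjusted p = 0.0416, adjusted p = 1.0, edgeR), and *Slc30a1* stood at -0.38 ± 0.32. Over the alternatives *Slc6a20a* ran from 0.16 to 0.72 and *Slc30a1* from -0.57 to -0.081. An unadjusted p under 0.05 was found for 1 member and 168 of 4882 genes in pericytes, and for 1 member and 410 of 10025 genes in smooth muscle cells.

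In microglia 24 of the 29 members were higher in ArcSwe mice, and their median was 0.63 on the log2 scale against -0.02 for all genes. The endothelial RNA in the class moved with them. The summed level of the 11 endothelial markers, none of which was at 0, was 961, 908.5, and 3635 CPM in the WT mice and 2794, 990.5, and 6540 in the ArcSwe mice, and its part in the result was not tested. *Slc16a4* (1.25 ± 0.46), *Slc30a1* (0.94 ± 0.38), and *Slc19a3* (1.39 ± 0.61) had an unadjusted p under 0.05, as did 887 of all 11558 genes, and *Slc38a5* had the largest change (1.87 ± 0.86). These sizes depended on the settings, with a range over the alternatives of 0.52 to 1.80 for *Slc16a4*, 0.33 to 1.32 for *Slc30a1*, 0.46 to 2.34 for *Slc19a3*, and 0.72 to 3.17 for *Slc38a5*. All 4 were larger without WT replicate 3, and *Slc38a5* was smallest without ArcSwe replicate 3. *Slc16a4* had 10.2, 5.77, and 23.4 in WT and 23.3, 18.7, and 39.9 in ArcSwe mice, and *Slc19a3* 3.79, 4.85, and 19.3 in WT and 19.0, 7.49, and 32.3 in ArcSwe mice. In both genes replicate 3 was the highest of each genotype, as it was in the marker sum. The lowest adjusted p of any member under any alternative was 0.0637 (edgeR), for *Slc19a3* in microglia without WT replicate 3. In simulated microglia the test recovered 0.5% of genes changed 2-fold, drawn from all genes, so for these a change of that size was hardly detectable by that test.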

How the data were processed

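The deposited files held raw UMI counts per gene and cell, which the authors made from 10x 3′ libraries with Cell Ranger 7.0.0 on the mouse build mm10, to which they had added sequences for mouse Clec7a and human NOTCH3. All values here were computed from these counts. Cells with 500 to 4500 genes and under 10% mitochondrial counts were kept, as in the study, and clustered in scanpy 1.11.5 without any solute carrier gene. Clusters were named from marker lists, mixed and unnamed clusters were left out, and endothelial cells were removed where Cx3cr1 or Aif1 had a UMI. Ribosomal, mitochondrial, pseudogene, and Rik genes (2712 in all) were then removed and counts summed per mouse and class. A class entered a fit with at least 20 cells in every mouse. Since UMIs are molecules, counting error is smallest in the large endothelial samples and largest in pericytes.

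Sums were tested with edgeR 4.0.16 (quasi-likelihood, filterByExpr, TMM, R 4.3.3) over all genes, with Benjamini-Hochberg adjustment. Genotypes were compared without other terms, and zones and cell types with the mouse as a block. A call needed an adjusted p under 0.05 and, between cell types, a 2-fold difference. ± after a log2 fold change is its SE. The fits were tested on simulated data. Each mouse is 1 library. P-values of the genotype fits weigh a difference against the spread between mice. In fits with the mouse as a block they weigh it against how much the difference within a mouse varies from mouse to mouse. The alternatives were DESeq2 1.42.0, RLE scaling, no low-count filter, no mouse term, the replicate number as a block, each mouse left out, a stricter cell filter (1000 genes, 5%), microglial UMIs kept, clustering resolution 2, solute carriers kept in the clustering, and, added after the data were seen, the 5% highest Scrublet scores left out. Scrublet itself marked 114 of 44112 cells (0.258%) and its calls were not used. All 34 members were to be named, with folds for each tested member in endothelial cells, for called members between zones and types, and in other genotype comparisons for members called, at an unadjusted p under 0.05, or with the 2 largest changes. The members and marker lists were chosen with earlier results of these data known.

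Same-numbered WT and ArcSwe mice deviated together in endothelial cells (r = 0.23, 0.16, and 0.382 over genes) and venous cells (0.219, 0.15, and 0.335), and in the other 5 classes at least 1 pair was under 0.1. Replicates differed by more than sampling noise (chi-square per gene 8.06 to 47.3).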

Additional observations from a re-analysis of the deposited data

How the results depend on the processing

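The count of members called between genotypes was 0 in all 7 classes and in the interaction under every alternative that was run, the replicate block included. With 1 mouse left out it stayed at 0 there, and it ran from 26 to 28 for arterial against capillary cells, 19 to 22 for venous against capillary, 29 to 30 for endothelial cells against pericytes, 28 to 28 against smooth muscle cells, 27 to 28 against microglia, 22 to 23 against fenestrated cells, and 5 to 7 for pericytes against smooth muscle cells. That last count was 6 and moved to 11 with no filter on low counts and to 3 with the stricter cell filter, and it was 5 without ArcSwe replicate 3, where *Slc6a13* could not be tested. *Slc25a5* was higher in venous than capillary cells by 0.30 on the log2 scale and reversed to -0.042 when solute carriers were kept in the clustering. Other calls were lost with 1 mouse left out. *Slc52a3* in arterial cells fell to -0.14 without WT replicate 1, -0.17 without WT replicate 3, and -0.17 without ArcSwe replicate 1, and *Slc26a10* there to 0.16 without WT replicate 1, 0.12 without ArcSwe replicate 1, and 0.16 without ArcSwe replicate 2. *Slc5a6* in arterial cells was -0.34 without WT replicate 3, and in venous cells 0.38 without WT replicate 1, 0.36 without ArcSwe replicate 1, and 0.29 without ArcSwe replicate 3. *Slc35f2* in venous cells was -0.14 without WT replicate 3 or ArcSwe replicate 3, *Slc22a4* against fenestrated cells 1.81 without ArcSwe replicate 1, and *Slc7a3* against pericytes 2.37 to 2.47 without any 1 mouse but ArcSwe replicate 3. Leaving out called doublets and leaving out microglial clusters of low ribosomal share were not run, the first because Scrublet marked too few cells and the second because it left 16 microglia in ArcSwe replicate 2. Counting depth limits the pericytes most, where 16 members had fewer than 10 UMIs in every mouse.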
